A study of Mus musculus with 42 samples.

Results

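The genes described are axon guidance ligands and receptors of the mouse genome, taken by symbol. They are the semaphorins of classes 3 to 7, their plexin and neuropilin receptors, the Slits and the Robos. The ephrins and Eph receptors, Ntn1, Ntn4, Dcc and the Unc5 receptors complete the set. Some other guidance ligands and receptors, such as Ntn3 and Shh, lie outside it. The symbols picked out 67 genes among the 55471 entries of the gene count table, and 66 of them had enough counts to be tested. The one left out was Robo4, a Robo best known from blood vessels, with 0 to 3 counts in any library.

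Axon guidance molecules steer the tips of growing axons, the growth cones, by attracting or repelling them. Secreted class 3 semaphorins bind neuropilins, which signal through A-type plexins, while Sema3e binds plexin D1 directly. Slits act on Robo receptors, netrins on Dcc and the Unc5 receptors, and ephrins on Eph receptors through contact between cells. In the hippocampus these systems guide mossy fibres and entorhinal inputs, and many of the genes stay on in young neurons as they form dendrites and synapses.

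Messenger RNA was sequenced from primary hippocampal neurons of NMRI mouse embryos (embryonic day 16) kept for 6 to 7 days in vitro. BDNF cultures (n = 6) received brain-derived neurotrophic factor, the ligand of the TrkB receptor, at 50 ng/ml for 20 min before it was washed out. BDNFEV cultures (n = 3) were exposed for 24 h to small extracellular vesicles (EVs) from cortical neurons that had themselves received BDNF at 50 ng/ml for 20 min. CtrlEV cultures (n = 3) were exposed for 24 h to EVs from control cortical neurons, and Ctrl cultures (n = 6) received vehicle. All groups share the strain and the culture conditions, and no gene was altered in any of them. How long after the BDNF pulse the hippocampal cells were harvested is not given in the sources used here, so BDNF and BDNFEV differ in the agent and may differ in time. The labels name 4 batches, a to d, without saying what a batch is. Batch a holds set 1, batch b holds sets 2 and 3, batch c sets 4 and 5, and batch d set 6. EV cultures exist in batches a and b only, and a set number joins 1 culture of each group present. Nothing in the labels says that libraries of a group came from separate preparations, so p-values measure the spread between these libraries, which may be technical.

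Libraries held 16274937 to 36835780 counts, of which the guidance genes made up 0.630% to 0.799%. Each library correlated with the rest of its group at 0.9949 to 0.9983 (Pearson's r of log2 values over genes, a description that would not show a shift in few genes). In BDNF against Ctrl cultures, leaving out a library of set 6 lowered the number of calls most, as given with the results. Summed markers of neurons lay at 5208 to 6267 CPM (counts scaled to library size) in every library. Microglia markers summed to 12.9 to 17.8 CPM and endothelial markers to 2.99 to 18.2 CPM. Astrocyte markers summed to 2073 to 2824 CPM, so the cultures held glia as well. The lists hold different genes, so the sums do not measure shares of cells. CPM values were scaled with TMM factors, and a gene's CPM depends on transcript length, so levels are compared between groups but not between genes.

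BDNF changed a small number of guidance genes, by small amounts, and in both directions. A gene was called when its edgeR quasi-likelihood p, adjusted over 17609 genes by the Benjamini-Hochberg method, was under 0.05. In BDNF against Ctrl cultures 15 of 66 genes were called, 6 higher and 9 lower, and 51 were not. That is 22.7% of the guidance genes beside 13.8% of all genes tested, with 9.09% beside 7.50% for higher calls and 13.6% beside 6.25% for lower calls. The gene set was chosen with earlier results of these data known, so these shares are descriptions only. The median log2 fold change of the guidance genes was 0.005, against -0.002 for all genes, and the median absolute change was 0.089 against 0.088. One gene, Sema3e, moved by more than 1.5-fold. Without BDNF of set 6 or without Ctrl of set 6, 9 genes were called. In bulk cultures fewer cells of a type and less RNA per cell cannot be told apart.

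By family the calls were few. Class 3 semaphorins gave 2 higher and 2 lower of 7 tested. Plexins and neuropilins gave 1 higher and 3 lower of 11, the Slits 1 higher of 3 and the Robos 1 lower of 3. EphB receptors had 1 higher and 1 lower of 5, ephrin-As 1 lower of 5, and the group of netrins, Dcc and Unc5 receptors 1 higher and 1 lower of 7. None of the 13 class 4 to 7 semaphorins, the 9 EphA receptors or the 3 ephrin-Bs was called in edgeR's test. The class 4 to 7 semaphorins lay between -0.13 and 0.08 on the log2 scale.

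**Figure D1:**
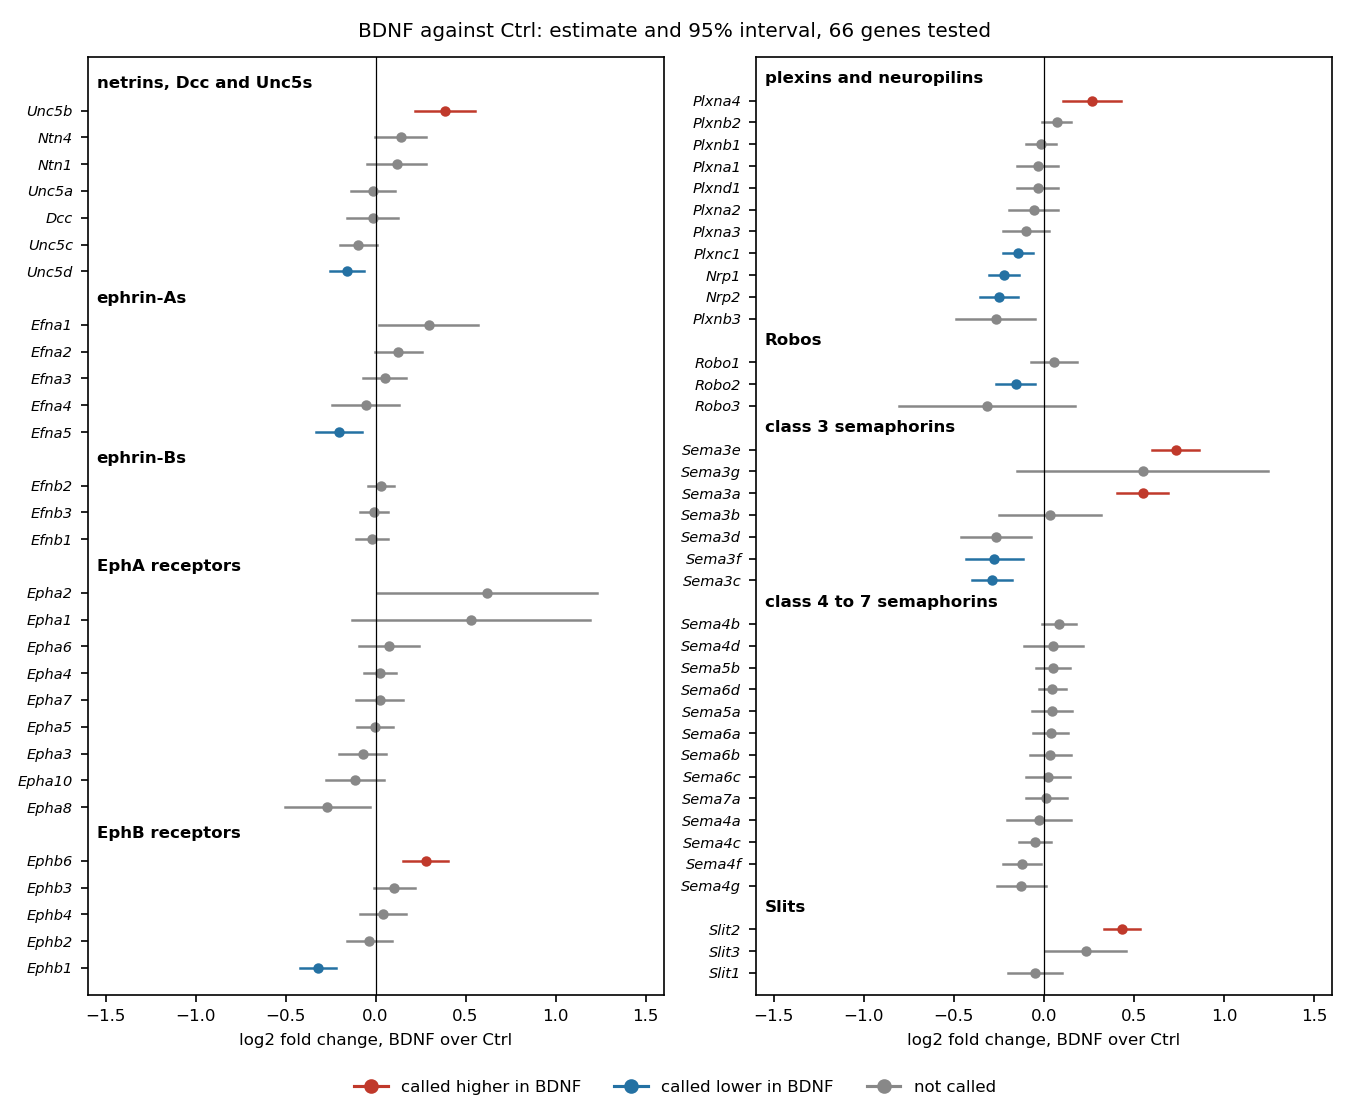
Log2 fold change of BDNF over Ctrl for the 66 genes tested, by family, with 95% intervals from the fit; red and blue mark genes called higher and lower. Sema3e, Sema3a and Slit2 lie farthest to the right among the called genes, and the class 4 to 7 semaphorins stay close to 0.

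Promoter sequences are shown for the 2 largest called rises and the 2 largest called falls whose RefSeq promoter window starts at the outer end of the gene's annotated span, since these genes moved in opposite directions under the same treatment. Each is the 250 bases before the annotated start in RefSeq GRCm38.p6, read 5′ to 3′ on the gene's strand: Sema3e at chr5:14025026-14025275 (+), Unc5b at chr10:60831582-60831831 (-), Ephb1 at chr9:102354694-102354943 (-) and Sema3c at chr5:17574566-17574815 (+). Capitals mark GC boxes in Sema3e, Unc5b and Sema3c and CCAAT boxes in Ephb1, on either strand.
Sema3e: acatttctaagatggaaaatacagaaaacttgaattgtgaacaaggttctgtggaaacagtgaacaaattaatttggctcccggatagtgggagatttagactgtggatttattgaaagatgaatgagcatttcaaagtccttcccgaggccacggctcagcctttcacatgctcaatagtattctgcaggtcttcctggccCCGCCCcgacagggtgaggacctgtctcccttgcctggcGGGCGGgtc
Unc5b: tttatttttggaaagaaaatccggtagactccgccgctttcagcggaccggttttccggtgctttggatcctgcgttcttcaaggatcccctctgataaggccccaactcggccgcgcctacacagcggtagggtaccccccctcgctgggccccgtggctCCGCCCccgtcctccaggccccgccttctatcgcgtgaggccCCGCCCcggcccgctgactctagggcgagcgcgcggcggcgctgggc
Ephb1: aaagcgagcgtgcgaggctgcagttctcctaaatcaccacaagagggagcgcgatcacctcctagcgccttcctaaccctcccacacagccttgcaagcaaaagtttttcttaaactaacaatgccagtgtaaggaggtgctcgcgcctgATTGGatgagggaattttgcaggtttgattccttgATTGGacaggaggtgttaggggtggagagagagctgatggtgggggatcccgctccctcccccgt
Sema3c: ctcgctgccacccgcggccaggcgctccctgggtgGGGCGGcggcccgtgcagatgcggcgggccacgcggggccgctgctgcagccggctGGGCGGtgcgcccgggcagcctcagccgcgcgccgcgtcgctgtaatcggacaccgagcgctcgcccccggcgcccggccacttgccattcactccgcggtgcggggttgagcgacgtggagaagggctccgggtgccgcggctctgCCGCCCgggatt

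The windows differ in base composition. G and C make up 78.4% of the Sema3c window, which holds 39 CpG dinucleotides, 66.8% of Unc5b (27 CpG), 54% of Ephb1 (10 CpG) and 48% of Sema3e (7 CpG). Sema3e, Unc5b and Sema3c each hold GC boxes (GGGCGG, 2, 2 and 3 matches), and Ephb1 holds none but has 2 CCAAT boxes (CCAAT). None of the 4 windows holds a cAMP response element (CRE, TGACGTCA), its half-site (TGACG), an AP-1 site (TGANTCA), an Egr site (GCGNGGGCG) or a TATA box (TATAAA). These are sequences bound by factors that neuronal activity and TrkB signalling are known to engage, apart from the TATA box, a core promoter element. Other called genes do hold such letters in a window: Slit2 an Egr site and a TATA box, and Efna5 and Plxnc1 an Egr site. Of the 67 genes, 57 had 73 windows in the reference. Over those windows the GC box occurred in 71.2%, against 32.7% of all 32851 windows of the same length, and the Egr site in 16.4% against 4.7%. The CRE occurred in 1.37% (the 1 window is at Epha2) against 1.55%, its half-site in 9.59% against 17.8% and the AP-1 site in 4.11% against 6.75%. The CCAAT box occurred in 27.4% against 33.8% and the TATA box in 2.74% against 12.4%. The median GC content was 64.4% in windows of guidance genes and 52.4% in all windows, and it moves with these shares. Both strands were searched, the CRE contains its half-site, the Egr site can overlap a GC box, and a match is a description of letters only.

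Among the secreted semaphorins, Sema3e rose most. Sema3e lies on chromosome 5 (14025276 to 14256689, GRCm38.p6) and encodes a repellent for axons that carry plexin D1. It measured 42.9, 52.1 and 69.3 CPM (lowest, median, highest) in BDNF cultures, against 26.9, 33.6 and 35.2 CPM in Ctrl cultures. Every BDNF library lay above every Ctrl library. The fold was 1.66 (95% interval 1.52 to 1.82), with a log2 fold change of 0.73 ± 0.06 (SE) and an edgeR adjusted p of 5.4e-08. It was higher in 6 of 6 sets, with within-batch log2 differences of 0.35, 0.79, 0.66 and 1.08 in batches a to d.

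Sema3a, the founding collapsing factor for growth cones, also rose, at a low level. It measured 8.11, 8.95 and 11.9 CPM in BDNF cultures, against 4.92, 6.12 and 8.71 CPM in Ctrl cultures. The ranges overlapped because Ctrl of set 6 lay above part of the BDNF libraries, while BDNF exceeded Ctrl in 6 of 6 sets. The fold was 1.46 (1.32 to 1.61), the log2 fold change 0.55 ± 0.07 and the edgeR adjusted p 5.74e-06. Differences within batches a to d were 0.54, 0.51, 0.67 and 0.44.

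Sema3c and Sema3f fell. Sema3c, which can attract as well as repel axons, measured 29.9, 34.6 and 43.2 CPM in BDNF cultures, against 38.5, 43.6 and 48.7 CPM in Ctrl cultures. Its fold was 0.82 (0.759 to 0.883), with a log2 fold change of -0.29 ± 0.05 and an edgeR adjusted p of 0.000506. BDNF was below Ctrl in 6 of 6 sets although the ranges overlapped. The differences were -0.12 and -0.17 in batches a and b, and -0.36 and -0.55 in batches c and d. Sema3f, a repellent that acts through neuropilin 2, measured 7.53, 10.3 and 12.3 CPM in BDNF cultures, against 9.63, 12.1 and 14.1 CPM in Ctrl cultures (log2 fold change -0.27 ± 0.08, edgeR adjusted p = 0.0186, lower in 5 of 6 sets). Without set 2 or 6 of either group, 1 library at a time, the adjusted p of Sema3f was 0.0504 to 0.0723.

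Both semaphorin genes that rose and Sema3c lie in the same stretch of chromosome 5, with Sema3d (12383161 to 12588953), Sema3a (13124822 to 13603485), Sema3e (14025276 to 14256689) and Sema3c (17574816 to 17730268) in that order. Sema3d was not called (log2 fold change -0.27 ± 0.09, edgeR adjusted p = 0.0613). Neighbouring members of the family thus stood at log2 fold changes of -0.27, 0.55, 0.73 and -0.29. Sema3b and Sema3g, the remaining class 3 members, were not called and were low, with 33 to 72 and 2 to 15 counts per library.

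The neuropilins, the binding subunits of the class 3 semaphorin receptor, both fell. Nrp2 measured 371, 526 and 633 CPM in BDNF cultures, against 484, 613 and 703 CPM in Ctrl cultures. It was lower in 6 of 6 sets, with a log2 fold change of -0.25 ± 0.05 and an edgeR adjusted p of 0.00183, though the ranges overlapped. Nrp1 measured 281, 298 and 344 CPM in BDNF cultures, against 309.8, 360.2 and 384 CPM in Ctrl cultures (log2 fold change -0.22 ± 0.04, edgeR adjusted p = 0.000491, lower in 5 of 6 sets). Within batches a to d the differences were -0.31, -0.07, -0.41 and -0.26 for Nrp2 and -0.14, -0.09, -0.35 and -0.32 for Nrp1. Batch b showed the smallest fall of both.

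Among the plexins, the signalling subunits, Plxna4 was higher and Plxnc1 lower. Plxna4, a receptor for Sema3a together with Nrp1, measured 221, 243 and 277 CPM in BDNF cultures, against 180.0, 187 and 249 CPM in Ctrl cultures. Its log2 fold change was 0.27 ± 0.08 with an edgeR adjusted p of 0.0272, and BDNF was higher in 5 of 6 sets. Leaving out BDNF of set 2, 3 or 6, or Ctrl of any set but 5, put its adjusted p at 0.0522 to 0.0656. The span of Plxna4 overlaps the antisense Plxna4os1, and without strand reads from any shared exon cannot be told apart. Whether exons overlap was not checked. Plxnc1, the receptor of Sema7a, measured 68.3, 73.7 and 78.1 CPM in BDNF cultures, against 76.4, 79.7 and 92.9 CPM in Ctrl cultures. It was lower in 6 of 6 sets, by -0.14 ± 0.04 on the log2 scale (edgeR adjusted p = 0.0191). Without BDNF of set 1, 5 or 6 or Ctrl of set 6 that p was 0.0545 to 0.0806. Plxnd1, the receptor of Sema3e, averaged 97.4 ± 6.0 CPM in BDNF cultures and 100.3 ± 11.7 CPM in Ctrl cultures (SD, n = 6 each) and was not called.

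**Figure D2:**
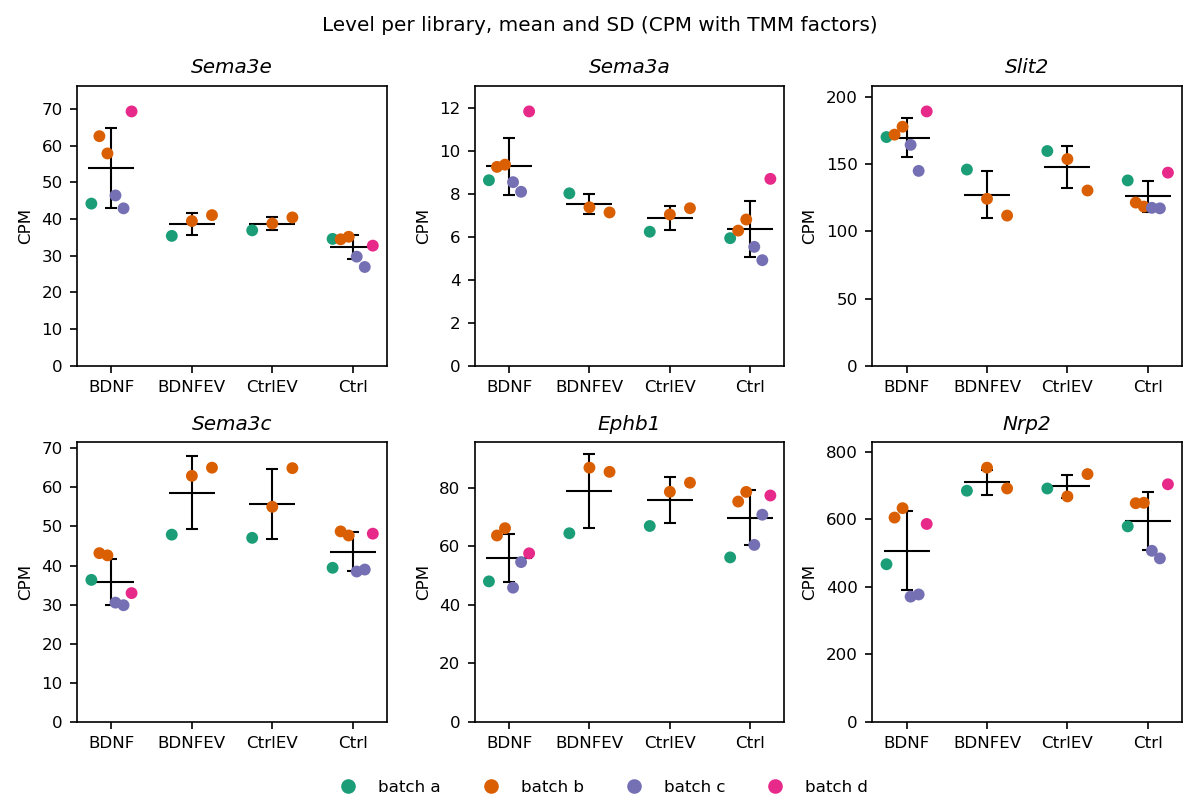
Level in CPM (linear axis from 0) of 6 genes in each library, with BDNF, BDNFEV, CtrlEV and Ctrl from left to right and points coloured by batch; bars give the mean and SD. Sema3e and Slit2 separate BDNF from Ctrl without overlap, and Sema3c and Nrp2 lie higher in BDNFEV than in BDNF.

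Of the Slits, repellents that also branch axons, Slit2 rose and the others were not called. Slit2 measured 145, 171 and 189 CPM in BDNF cultures, against 117, 120.0 and 144 CPM in Ctrl cultures. The groups did not overlap, and 6 of 6 sets had the higher value under BDNF. The fold was 1.35 (1.26 to 1.446), with a log2 fold change of 0.43 ± 0.05 and an edgeR adjusted p of 1.27e-06. Differences within batches a to d were 0.30, 0.55, 0.40 and 0.40. Slit3 stood at 126 ± 15 CPM in BDNF cultures and 108 ± 21 CPM in Ctrl cultures (SD, n = 6 each, edgeR adjusted p = 0.178). Slit1 had a log2 fold change of -0.05.

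Robo2, a Slit receptor, was lower at the edge of the threshold (log2 fold change -0.16 ± 0.05, edgeR adjusted p = 0.0467). It measured 52.2, 62.4 and 85.3 CPM in BDNF cultures, against 57.5, 75.6 and 80.1 CPM in Ctrl cultures, lower in 5 of 6 sets. With the set as a block its adjusted p was 0.072, and the call held in 3 of 21 alternatives. Leaving out any 1 BDNF or Ctrl library of sets 2 to 6 gave 0.0537 to 0.233. The log2 fold change of Robo2 was -0.10 without BDNF of set 6 and -0.10 without Ctrl of set 6. Robo1 averaged 103 ± 24 CPM in BDNF cultures and 97.8 ± 14.6 CPM in Ctrl cultures (SD, n = 6 each) and was not called.

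Netrin receptors of the Unc5 family, which turn the netrin response into repulsion, split. Unc5b measured 31.0, 39.0 and 52.0 CPM in BDNF cultures, against 29.4, 31.7 and 32.6 CPM in Ctrl cultures. It was higher in 6 of 6 sets, with a log2 fold change of 0.39 ± 0.08 and an edgeR adjusted p of 0.00273. The differences within batches a to d were 0.08, 0.25, 0.46 and 0.73. Unc5d measured 122, 164 and 196 CPM in BDNF cultures, against 158, 168 and 238 CPM in Ctrl cultures (log2 fold change -0.16 ± 0.05, edgeR adjusted p = 0.0208). It was lower in 5 of 6 sets, with differences of 0.02 and -0.05 in batches a and b and -0.30 and -0.28 in batches c and d. Without BDNF of set 5 or 6 or Ctrl of set 4 or 6 its adjusted p was 0.059 to 0.0874. Dcc, the attractive netrin receptor, had a log2 fold change of -0.02, and the ligands Ntn1 and Ntn4 were not called.

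In the ephrin system, Ephb1 fell and Ephb6 rose. Ephb1, a receptor for ephrin-Bs with a role in synapse and spine formation, measured 45.9, 56.2 and 66.2 CPM in BDNF cultures, against 56.3, 73.1 and 78.6 CPM in Ctrl cultures. It was lower in 6 of 6 sets, by -0.23, -0.24, -0.39 and -0.43 in batches a to d, and the group ranges overlapped. Its fold was 0.80 (0.748 to 0.860), with a log2 fold change of -0.32 ± 0.05 and an edgeR adjusted p of 6.44e-05. Ephb6, a receptor without kinase activity, measured 72.0, 87.7 and 98.0 CPM in BDNF cultures, against 65.4, 67.5 and 82.5 CPM in Ctrl cultures. Its log2 fold change was 0.28 ± 0.06 (edgeR adjusted p = 0.00376, higher in 5 of 6 sets).

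Efna5, a repellent ephrin-A of topographic maps, was lower in BDNF cultures (log2 fold change -0.20 ± 0.06, edgeR adjusted p = 0.0284). It measured 15.6, 17.4 and 18.1 CPM in BDNF cultures, against 15.6, 18.9 and 25.5 CPM in Ctrl cultures, and was lower in 5 of 6 sets. Set 6 carried the largest difference, -0.54, against 0.00 at the other end. Without BDNF of set 2, 3 or 6 or Ctrl of set 2 or 6 its adjusted p was 0.0512 to 0.198. Its log2 fold change was -0.12 without BDNF of set 6 and -0.12 without Ctrl of set 6. The EphA receptors that bind ephrin-As ranged from -0.27 (Epha8) to 0.62 (Epha2) in log2 fold change, and none was called. Epha1 and Epha2 had 1 to 19 and 2 to 49 counts per library, so a change in them of the size seen in Sema3e was not detectable at this depth.

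The guidance genes called differed between fits of single batches. In batch b alone (2 BDNF and 2 Ctrl libraries) edgeR called 11 guidance genes, 10 higher and 1 lower, and 6 of them were among the 15. In batch c alone (2 and 2) it called 14, of which 4 were higher and 10 lower, and 8 were among the 15. With batches a and b together, 6 were called. Sema3e, Sema3a, Slit2, Plxna4 and Ephb1 were called there too, while the other 10 of the 15 had edgeR adjusted p of 0.0571 (Ephb6) to 0.842 (Unc5d). These counts were not set beside the shares of all genes called in the same fits. Whether the BDNF effect differs between batches was not tested. Sema3e, Sema3a and Slit2 stayed called in all 21 alternatives.

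**Figure D3:**
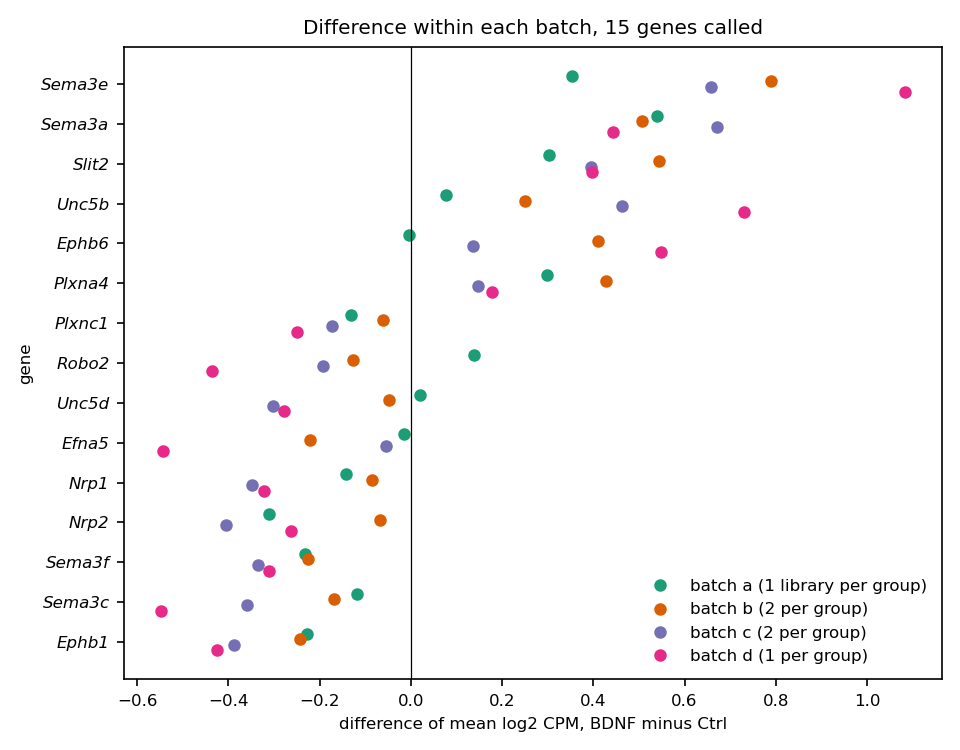
Difference of mean log2 CPM, BDNF minus Ctrl, within each batch for the 15 genes called (batches a and d with 1 library per group, b and c with 2). Sema3e, Sema3a, Slit2, Unc5b and Plxna4 lie right of 0 in every batch. Ephb1, Sema3c, Sema3f, Nrp1, Nrp2, Plxnc1 and Efna5 lie left of 0 in every batch.

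Other parts of the pathway also moved both ways. The 84 further axon guidance genes tested were adhesion partners, other ligands and receptors, cytoskeletal effectors and small GTPase regulators. Of these, 59 were not called, and 14 were higher and 11 lower in BDNF cultures, with a median log2 fold change of 0.03. That is 29.8% called, beside 13.8% of all genes. The list was chosen with earlier results of these data known, so this share is a description only. Mical2, which oxidises actin, averaged 201 CPM in BDNF cultures and 122.5 CPM in Ctrl cultures (log2 fold change 0.72 ± 0.07, edgeR adjusted p = 4.53e-06). Contact protein genes were called both ways, with Slitrk1, Ntng2, Nrcam, Cntn2, Dscam and Nfasc higher, and Chl1 and Lrrc4c lower. The ligands Ntn3 and Shh and the receptor Cxcr4 were called higher. Dpysl4, Dpysl3 and Crmp1, collapsin response mediator genes that act downstream of Sema3a, were lower. Dpysl2 and Dpysl5 of the same family were not among the called genes. For Dpysl4 the averages were 141 CPM in BDNF cultures and 169 CPM in Ctrl cultures (-0.27 ± 0.04, edgeR adjusted p = 2.14e-05).

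Lists of treatment and cell type markers were described in the same comparison, where 7.50% of all genes were called higher and 6.25% lower. These lists were also chosen with earlier results of these data known. Of 37 activity and BDNF response genes, 13 were higher (35.1%) and none lower in BDNF cultures. Npy, a neuropeptide of interneurons that also responds to BDNF, averaged 58.7 CPM in BDNF cultures and 7.60 CPM in Ctrl cultures. Of 8 inhibitory neuron markers (Npy among them) 5 were higher and none lower, with a sum of 863 to 1381 CPM in BDNF cultures and 591 to 971 CPM in Ctrl cultures. Of 8 progenitor and proliferation markers 4 were higher and none lower, with sums of 376 to 545 CPM in BDNF cultures and 326.0 to 389.9 CPM in Ctrl cultures. Excitatory neuron markers summed to 1265 to 1459 CPM in BDNF cultures and 1124 to 1546 CPM in Ctrl cultures, with 1 of 8 higher and 3 lower. Of 9 astrocyte markers 2 were higher and 3 lower, and of 8 in the oligodendrocyte lineage 3 were higher and 2 lower. Of 9 fibroblast, mural and meningeal markers 2 were higher and 1 lower (median log2 fold change 0.27), with sums of 78.7 to 159 CPM in BDNF cultures and 104 to 150.3 CPM in Ctrl cultures. Of 5 Cajal-Retzius markers 2 were higher and 1 lower, with sums of 719 to 932 CPM in BDNF cultures and 629.8 to 924 CPM in Ctrl cultures. Of 8 neuron markers 3 were higher and 2 lower. The ranges of each of the sums given here overlapped between BDNF and Ctrl cultures. The part of these cell types in the guidance gene results was not tested.

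In edgeR's main fit, with all 18 libraries and the filter on low counts, EV exposure gave no call against Ctrl among the guidance genes. In BDNFEV against Ctrl cultures edgeR called 0 of 66, beside 0.0227% of all genes (4 of 17609). At an unadjusted p under 0.05 the number was 12 of 66, all of them higher, a share of 18.2% beside 7.25% of all genes. DESeq2 called 1, Sema3c. Log2 fold changes were positive in 46 of 66 genes, with a median of 0.086 against -0.003 for all genes, and the median SE was 0.080. The fit adjusts for batch, so a fold change against Ctrl need not equal the ratio of the group means, which take in all 6 Ctrl libraries.

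Sema3c had the smallest p in that comparison. It measured 47.9, 62.9 and 65.0 CPM in the BDNFEV libraries, against 39.4, 48.7 and 47.7 CPM in Ctrl libraries of the same sets. The log2 fold change was 0.30 ± 0.07 (edgeR adjusted p = 0.152). Epha7, a receptor for ephrin-As, measured 101, 94.0 and 97.4 CPM in the BDNFEV libraries, against a range of 64.1 to 88.2 CPM over the 6 Ctrl libraries (0.28 ± 0.08, edgeR adjusted p = 0.384). Sema6c, a transmembrane semaphorin, measured 106, 96.8 and 85.2 CPM in BDNFEV cultures, against 68.4, 74.8 and 85.5 CPM (lowest, median, highest) in Ctrl cultures (0.27 ± 0.08, edgeR adjusted p = 0.378). When only the libraries of the 2 groups were fitted, 8 guidance genes were called, all higher. The edgeR adjusted p in that fit was 0.00177 for Sema3c, 0.00258 for Epha7 and 0.0148 for Sema6c. The 8 calls were not set beside the share of all genes called in that fit.

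The lowest p-values among negative values in BDNFEV against Ctrl belonged to Sema3b (-0.36), Plxnb3 (-0.26) and Epha2 (-0.85), with edgeR adjusted p of 0.748, 0.755 and 0.79. Epha2 averaged 0.370 ± 0.236 CPM in BDNFEV cultures (n = 3) and 0.845 ± 0.446 CPM in Ctrl cultures (n = 6), with 2 to 49 counts per library.

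CtrlEV against Ctrl cultures gave 0 of 66 calls in edgeR, beside 0.0284% of all genes, and 0 in DESeq2. At an unadjusted p under 0.05 the number was 10 of 66, all higher (15.2% beside 6.14% of all genes), and the median log2 fold change was 0.029. Sema5a, a transmembrane semaphorin, measured 111, 120.2 and 109 CPM in CtrlEV cultures, against 78.4, 90.4 and 111 CPM (lowest, median, highest) in Ctrl cultures. Its log2 fold change was 0.25 ± 0.07, with an edgeR adjusted p of 0.776. Slit2 stood at 0.22 ± 0.06 and Sema3c at 0.23 ± 0.07, both with an adjusted p of 0.776. On the negative side the smallest p-values were those of Unc5a (-0.15), Epha10 (-0.20) and Efna3 (-0.12), with adjusted p of 0.854 to 0.867.

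In the same main fit the BDNF of the EV donors was followed by no call. BDNFEV against CtrlEV cultures gave 0 of 66 in edgeR, beside 0.00% of all genes, and 0 in DESeq2. At an unadjusted p under 0.05 there were 8 of 66, 5 higher and 3 lower (12.1% beside 8.38% of all genes). Sema6c measured 106, 96.8 and 85.2 CPM in BDNFEV cultures, against 100.3, 65.8 and 73.9 CPM in CtrlEV cultures of the same sets (log2 fold change 0.28 ± 0.08, edgeR adjusted p = 0.423). Unc5c, a netrin receptor, measured 60.0, 56.2 and 50.5 CPM in BDNFEV cultures, against 63.3, 71.2 and 61.7 CPM in CtrlEV cultures. These groups did not overlap (-0.24 ± 0.07, edgeR adjusted p = 0.423). Slit2 had 146, 124 and 112 CPM in BDNFEV cultures, against 159.9, 154 and 131 CPM in CtrlEV cultures (-0.22 ± 0.07, edgeR adjusted p = 0.429). Each of the 3 sets gave the lower value to BDNFEV. Efna3 and Sema7a stood at 0.23 and 0.22, and Sema5a at -0.21, with adjusted p of 0.496 to 0.51. Without the filter on low counts 4 genes were called, with edgeR adjusted p of 0.00119 for Sema6c, 0.0205 for Efna3 and 0.0206 for Sema7a, and in batch b alone 3 were called, with 0.0479 for Sema6c and 0.0358 for Efna3.

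**Figure D4:**
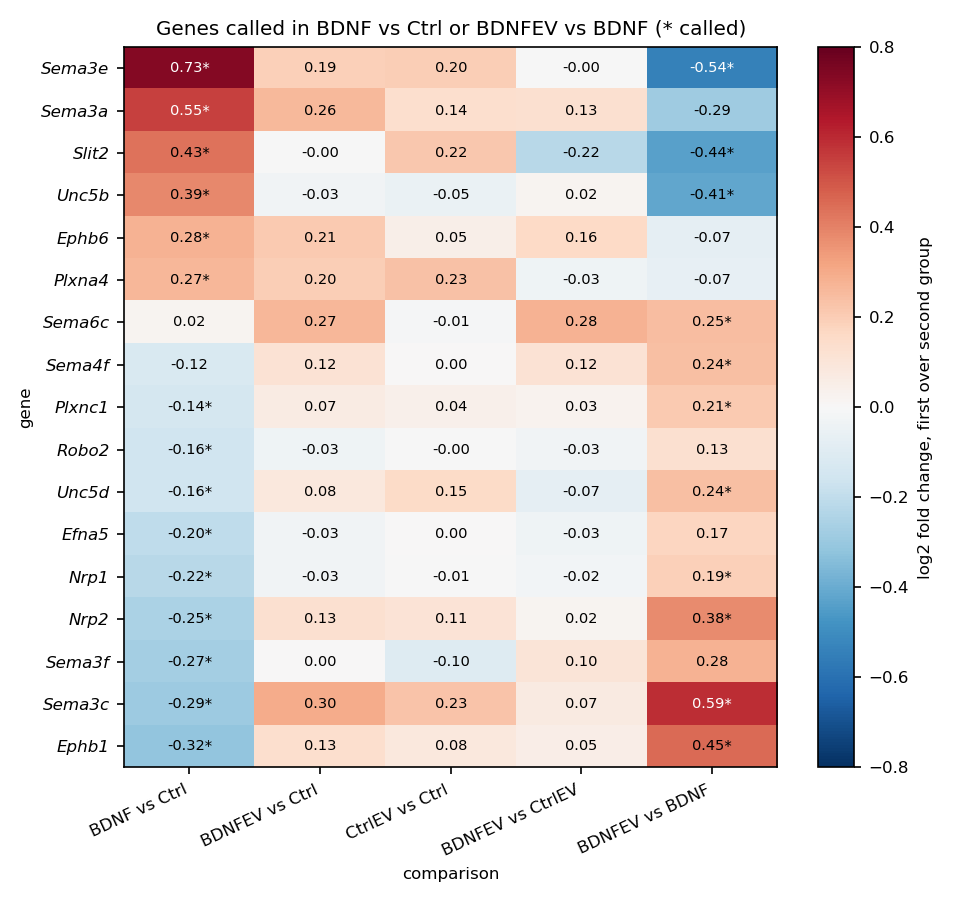
Log2 fold change of the first over the second group in 5 comparisons for the 17 genes called in at least 1 of them, with an asterisk for a call. The comparisons share libraries, so columns are not independent. BDNF vs Ctrl and BDNFEV vs BDNF hold all the calls.

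BDNFEV and BDNF cultures differed in 11 of 66 guidance genes, with 8 higher and 3 lower in BDNFEV. That is 16.7% beside 8.36% of all genes, 12.1% beside 3.36% for higher and 4.55% beside 5.00% for lower calls. The contrast equals the difference of the BDNFEV and BDNF effects against Ctrl, so it tests whether the effects differ. Without 1 library the number called ran from 5 (without BDNFEV of set 2) and 7 (without BDNFEV of set 1) to 20 (without BDNF of set 3). The median log2 fold change was 0.105, against -0.003 for all genes. It shares its BDNF libraries with the comparison above, so the values of both are set side by side and not as separate evidence.

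Sema3c differed most among the calls. It measured 47.9, 62.9 and 65.0 CPM in BDNFEV cultures, against 36.3, 43.2 and 42.6 CPM in BDNF cultures of the same sets. The BDNFEV libraries lay above all 6 BDNF libraries, and the level was 50.3% higher (95% interval of the fold 1.37 to 1.66), with an edgeR adjusted p of 3.89e-06. Ephb1 measured 64.5, 86.9 and 85.5 CPM in BDNFEV cultures, against 48.1, 63.7 and 66.2 CPM in BDNF cultures of those sets. It was higher in 3 of 3 sets (log2 fold change 0.45 ± 0.06, edgeR adjusted p = 4.4e-05). Nrp2 measured 684, 753 and 691 CPM in BDNFEV cultures, against 467, 605 and 633 CPM in BDNF cultures of those sets (0.38 ± 0.07, edgeR adjusted p = 0.000708).

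On the other side were Sema3e, Slit2 and Unc5b. Sema3e measured 35.4, 39.4 and 41.1 CPM in BDNFEV cultures, against 44.2, 62.6 and 57.9 CPM in BDNF cultures of those sets, without overlap (log2 fold change -0.54 ± 0.08, edgeR adjusted p = 0.000191). Slit2 measured 146, 124 and 112 CPM in BDNFEV cultures, against 170.3, 172 and 178 CPM in BDNF cultures of those sets (-0.44 ± 0.06, edgeR adjusted p = 9.13e-05). Unc5b measured 30.0, 29.7 and 26.4 CPM in BDNFEV cultures, against 31.0, 37.7 and 39.1 CPM in BDNF cultures of those sets (-0.41 ± 0.11, edgeR adjusted p = 0.0211). All 3 genes were lower in 3 of 3 sets. Within batches a and b the differences were -0.32 and -0.58 for Sema3e, -0.22 and -0.57 for Slit2, and -0.05 and -0.46 for Unc5b. Without BDNFEV of set 2 or 3 the adjusted p of Unc5b was 0.0868 and 0.118.

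The remaining higher calls were Unc5d, Sema4f, Plxnc1, Nrp1 and Sema6c, at 0.24, 0.24, 0.21, 0.19 and 0.25 on the log2 scale, with edgeR adjusted p of 0.0107 to 0.0481. Nrp1 had 314, 375 and 349 CPM in BDNFEV cultures, against 281, 320.4 and 344 CPM in BDNF cultures of those sets. Sema4f and Sema6c had not been called in BDNF against Ctrl cultures (-0.12 and 0.02). Leaving out BDNFEV of set 1 or 2 put the adjusted p of all 5 between 0.0605 and 0.284. The call also ended without BDNF of set 1 for Plxnc1 (0.0519) and Sema4f (0.0911), and without BDNF of set 1, 2, 4 or 5 or BDNFEV of set 3 for Sema6c (0.062 to 0.111). With the set as a block, Sema6c had an adjusted p of 0.0787. Sema3a was lower by -0.29 ± 0.09 and not called (edgeR adjusted p = 0.0513), although all BDNFEV libraries lay below all BDNF libraries. Sema3c, Ephb1, Sema3e and Slit2 stayed called in all 17 alternatives. Within batches a and b alone 7 of the 11 remained.

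For the genes called in both BDNF comparisons, the effects against Ctrl are given side by side. The BDNF values rest on batches a to d, while EV cultures exist in batches a and b only. Log2 fold changes against Ctrl were 0.19 in BDNFEV and 0.73 in BDNF cultures for Sema3e, -0.004 in BDNFEV and 0.43 in BDNF for Slit2, and -0.03 in BDNFEV and 0.39 in BDNF for Unc5b. Among the genes lower under BDNF, Ephb1 had 0.13 in BDNFEV and -0.32 in BDNF cultures, and Sema3c 0.30 in BDNFEV and -0.29 in BDNF. Nrp2 had 0.13 in BDNFEV and -0.25 in BDNF cultures, and Nrp1 -0.03 in BDNFEV and -0.22 in BDNF. Unc5d had 0.08 in BDNFEV and -0.16 in BDNF cultures, and Plxnc1 0.07 in BDNFEV and -0.14 in BDNF. Averages in BDNFEV and CtrlEV were 38.6 and 38.7 CPM for Sema3e, 127 and 148 CPM for Slit2, and 28.7 and 28.3 CPM for Unc5b. They were 79.0 and 75.8 CPM for Ephb1, 58.6 and 55.7 CPM for Sema3c, and 709 and 697 CPM for Nrp2. Those of Nrp1 were 346 and 351 CPM, of Unc5d 189 and 198 CPM, and of Plxnc1 84.7 and 83.2 CPM. None was called between these groups, and CtrlEV was not tested against BDNF. The differences from BDNF were thus not shown to be particular to BDNFEV. In batches a and b alone the BDNF values were smaller for several genes. They were 0.20 for Unc5b, -0.15 for Sema3c, -0.14 for Nrp2, -0.10 for Nrp1, -0.02 for Unc5d and -0.08 for Plxnc1. Sema3e, Slit2 and Ephb1 were still called there. Within batches a and b, Nrp1 in BDNFEV stood at 0.02 to 0.04 against Ctrl. Among the 84 further pathway genes 9 were higher and 3 lower in BDNFEV than in BDNF cultures (10.7% beside 3.36% of all genes for higher and 3.57% beside 5.00% for lower). Dpysl4 and Crmp1 were among those higher, and Mical2, Ntng2 and Shh were lower. Of the 37 activity and BDNF response genes none was higher and 16 were lower in BDNFEV than in BDNF cultures. The share lower was 43.2%, beside 5.00% of all genes. Against Ctrl the median log2 fold change of this list was -0.569 in BDNFEV, -0.145 in CtrlEV and 0.084 in BDNF cultures. The list median thus lay below Ctrl in BDNFEV cultures, though none of its genes was called there. Sums of inhibitory neuron markers were 560.4 to 917 CPM in BDNFEV cultures and 863 to 1381 CPM in BDNF cultures, and sums of progenitor markers were 299 to 318 CPM in BDNFEV cultures and 376 to 545 CPM in BDNF cultures. Oligodendrocyte lineage markers summed to 847 to 892 CPM in BDNFEV cultures and 951 to 1204 CPM in BDNF cultures, without overlap, with 1 of 8 called higher and 3 lower. Of 9 fibroblast, mural and meningeal markers 1 was higher and 5 lower (median log2 fold change -0.55), with sums of 96.1 to 127 CPM in BDNFEV cultures and 78.7 to 159 CPM in BDNF cultures. The part of these cell types in the differences was not tested.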

How the data were processed

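Gene counts of 18 hippocampal libraries were analysed; the 24 small RNA samples of the series were not used here. The authors deposited raw counts per Ensembl gene, not normalised. Per the labels' protocols, libraries were made from 500 ng RNA with the TruSeq RNA v2 kit and read on a HiSeq2000 as single reads of 50 bp. The kit does not mark strand, and 27 of the 67 gene spans overlap another annotated gene, Nrp1, Nrp2, Ephb1, Efna5, Unc5d, Robo2 and Sema3a among them. Overlap of exons was not checked, and only reads from shared exons could not be told apart. The build was mm10 and the tools cutadapt 1.8.1, CASAVA (1.8 and 1.8.2) and DESeq2, per the submitters' processing notes. The authors' aligner and counter were not given in the sources used here.

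All 18 libraries were fitted together with edgeR 4.0.16 (R 4.3.3): TMM factors, filterByExpr with a minimum count of 10, batch as covariate, robust quasi-likelihood test and Benjamini-Hochberg adjustment over 17609 genes. Errors after ± are SE of log2 fold changes or SD of CPM, and intervals are 95%. The fit was tried on simulated counts with changes placed in the BDNF group only and no batch or set effects. That trial did not cover the batch adjustment or the EV comparisons. Symbols and spans came from RefSeq GRCm38.p6; 55144 entries had a symbol, and the 327 without one held 0.0247% of counts.

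Named genes were all called ones (up to 12 per direction), or the 3 smallest p-values in a direction with fewer than 3 calls. Naming the most abundant genes of each family was not done, since no transcript lengths were used. Examples from outside the 67 genes were picked with their values in view. The gene set and the lists were chosen with earlier results of these data known.

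Deviations of same-numbered libraries from their group means correlated at 0.349 to 0.577 for BDNF with Ctrl and at 0.185 to 0.564 for pairs that include an EV group. The same-numbered library was the closest in 4 of 6 cases for BDNF with Ctrl. For BDNFEV it was the closest in 3 of 3 with Ctrl, 2 of 3 with CtrlEV and 1 of 3 with BDNF, and for CtrlEV in 2 of 3 with Ctrl. Batch was not removed first, so these values do not separate a shared set from a shared batch. Alternatives were DESeq2's size factors, DESeq2 1.42.0, no filter, a replicate block, no batch term, only the groups compared, single batches and leaving out each library.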

Additional observations from a re-analysis of the deposited data

Results flagged for a closer look

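In 3 of 54 combinations of a named gene with the BDNF or Ctrl group, 1 of the 6 libraries lay far from the rest. Chance flags about 1 group in 20, which is close to this number. Sema3a measured 11.9 CPM in BDNF of set 6, against 8.11 to 9.37 CPM in the other BDNF libraries. Plxnc1 measured 92.9 CPM in Ctrl of set 6, against 76.4 to 82.4 CPM in the other Ctrl libraries. Unc5d measured 238 CPM in Ctrl of set 6, against 158 to 173 CPM in the other Ctrl libraries. All 3 are libraries of set 6, the single set of batch d, so a single library and its batch cannot be told apart. The cause was not tested. Without Ctrl of set 6, the adjusted p in BDNF against Ctrl cultures was 0.0771 for Plxnc1 and 0.0812 for Unc5d. Sema3a kept its call without BDNF of set 6 or without Ctrl of set 6.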

How the results depend on the processing

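No log2 fold change of a named gene changed sign under the alternatives run. The balance of higher and lower calls in BDNF against Ctrl cultures did turn in batch b alone, as given with the results. In BDNF against Ctrl cultures 15 genes were called, and the number was 5 without a batch term, 6 in batches a and b alone and 9 to 16 with 1 library left out, the 9 coming without BDNF or without Ctrl of set 6. In BDNFEV against BDNF cultures 11 were called, against 20 without the filter on low counts, 6 without a batch term, 7 in batch b alone, 7 in batches a and b alone and 5 to 20 with 1 library left out (20 without BDNF of set 3, 7 without BDNFEV of set 1 and 5 without BDNFEV of set 2). In BDNFEV against Ctrl cultures 0 became 4 without the filter, 1 with DESeq2, 8 with only the groups compared, 3 in batch b alone and 1 in batches a and b alone. In CtrlEV against Ctrl cultures 0 became 1 without the filter, and in BDNFEV against CtrlEV cultures 4 without the filter and 3 in batch b alone. Leaving out a library kept 0 calls in each of these 3 comparisons. The causes were not tested, beyond there being fewer libraries in the batch fits. The numbers were not set beside the shares of all genes called in the same alternatives. With the replicate block the counts were 14 for BDNF against Ctrl and 10 for BDNFEV against BDNF, which lost Robo2 and Sema6c, and 0 in the other 3; pairing changed no other call. With the EV groups in 2 batches and 3 libraries each, the median SE of a log2 fold change was 0.079 to 0.085 in comparisons with EV groups, against 0.061 for BDNF against Ctrl. Among named genes in BDNF against Ctrl cultures, the calls of Plxna4 and Efna5 held in 11 of 21 alternatives, those of Sema3f and Plxnc1 in 13, Unc5d in 14, Ephb6, Sema3c and Nrp2 in 18, and Nrp1, Ephb1 and Unc5b in 19.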
